A study of Mus musculus with 8 samples.

Results

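Heat shock chaperone genes were examined in the colon of bone marrow chimeric mice. The 10 genes were taken from a fixed list of names and were found by Ensembl identifier among the 26008 genes of the deposited table. They comprise 5 heat-inducible targets of the heat shock factor HSF1 (*Hspa1a*, *Hspa1b*, *Hsph1*, *Dnajb1* and *Hsp90aa1*), 2 constitutive cytosolic chaperones (*Hspa8* and *Hsp90ab1*), both parts of the mitochondrial chaperonin (*Hspd1* and *Hspe1*) and *Hsf1* itself. All 10 passed the filter on low values, a mean of at least 10 normalized counts over the libraries, which left 19127 genes to be tested.

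RNA-seq was performed on colon biopsies of 4 penk-/- and 4 penk+/+ chimeras, each mouse giving 1 library. Recipients were lethally irradiated wild-type C57BL/6JRj males, 7 weeks old at engraftment, and the genotype is that of the male donors (9 to 11 weeks old), which carried the proenkephalin gene *Penk* or a germline knockout of it. The chimeras were kept for 18 to 21 weeks before they were examined. In both groups the epithelium, smooth muscle and enteric neurons are those of the irradiated wild-type host, so that the deletion was confined to cells derived from the grafted marrow. Values are normalized counts, that is, reads per gene scaled by the authors with 1 size factor for each library. The libraries held 33.1 to 50.7 M counted reads (median 38.5 M). *Penk* in these biopsies did not tell the donors apart (528 ± 67.5 against 541 ± 73.2 normalized counts, SD, *n* = 4 each, penk-/- first). The 8 epithelium markers summed to 440767 to 652273 normalized counts per library, the 6 smooth muscle markers to 142687 to 244816 and the 6 leukocyte markers to 4951 to 14163, so that every biopsy held mucosa and muscle. Accessory gland genes reached high levels in a pair of libraries, with *Pbsn* (probasin, a prostate protein) at 105658 normalized counts in replicate 3 of the penk-/- and 111024 in replicate 4 of the penk+/+ chimeras, against 0 to 13425 in the others. In whole biopsies, a change in the number of cells of a type and a change of RNA per cell cannot be told apart.

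Chaperones bind unfolded or folding proteins and keep them from aggregating. HSF1 is held inactive in unstressed cells, where HSP70 and HSP90 bind it. When unfolded proteins draw these chaperones away, HSF1 forms trimers that bind heat shock elements, inverted repeats of nGAAn, and strongly activate the inducible genes. The constitutive chaperones are made at high levels in most cells without stress, and the gut epithelium, which renews itself continuously, is rich in them.

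Heat shock elements were looked for near the starts of the 10 genes. The 300 bases before the start of the canonical transcript were searched on both strands for a pair of inverted units (GAANNTTC or TTCNNGAA) and for 3 adjacent units (such a pair followed at the same spacing by another inverted unit, so that every triplet also counts as a pair). The stretches of *Hspa1a* and *Hspa1b* are shown because the genes are near-identical copies. The 150 bases before their starts lie on the minus strand at chr17:35191133-35191282 and chr17:35178215-35178364 of GRCm39, and capitals mark the element.
Hspa1a: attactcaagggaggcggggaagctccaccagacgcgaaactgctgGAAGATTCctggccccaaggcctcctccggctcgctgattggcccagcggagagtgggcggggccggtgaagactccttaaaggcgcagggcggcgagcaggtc
Hspa1b: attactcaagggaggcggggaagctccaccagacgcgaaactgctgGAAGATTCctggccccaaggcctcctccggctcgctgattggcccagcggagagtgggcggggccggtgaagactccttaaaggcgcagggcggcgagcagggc

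These stretches were identical at 149 of 150 bases, with the element GAAGATTC at 104 to 97 bases before either start. *Hspd1* and *Hspe1* are shown because they are read in opposite directions from a shared stretch. The part of it that precedes the first annotated base of *Hspe1* is given on the plus strand, chr1:55127184-55127259 of GRCm39, with 4 adjacent units, which form 3 overlapping pairs, in capitals.
Hspd1-Hspe1: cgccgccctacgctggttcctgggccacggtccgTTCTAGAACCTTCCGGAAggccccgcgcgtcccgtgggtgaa

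This run lay 73 to 56 bases before the start of *Hspe1* and 52 to 35 bases before that of *Hspd1*. *Hsph1* held the pair TTCTCGAA at 28 to 21 bases before its start. *Dnajb1*, *Hsp90aa1*, *Hspa8*, *Hsp90ab1* and *Hsf1* had no match to either pattern in this window, which says nothing of more divergent or distant elements. A pair was found before 14.9% of 21757 protein-coding genes and 3 adjacent units before 0.483%. In the list the counts were 5 and 2 of 10. The genes had been listed as heat shock genes, and the counts describe the list only.

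The levels of the 10 genes spanned a wide range. Per kilobase of the canonical transcript, the constitutive HSP70 gene *Hspa8* was the most abundant, with a mean of 26042 normalized counts per kilobase (23830 to 30771 over the 8 libraries), followed by the HSP90 beta gene *Hsp90ab1* with 16913 (15123 to 19430). *Hspd1* (4616, from 4244 to 5220), *Hsp90aa1* (3389, from 3106 to 3912) and *Hspe1* (2086, from 1787 to 2320) came next, without overlap between neighbours. *Dnajb1* had 580 normalized counts per kilobase (488 to 676). *Hsph1* (375, from 322 to 514) overlapped *Dnajb1* at its upper end and lay within the range of *Hspa1b* (349, from 237 to 579). *Hsf1* stood at 197 (162 to 228) and *Hspa1a* at 44.5 (21.4 to 75.5). *Hspa8* and *Hsp90ab1* together held 75.9% to 78.7% of the normalized counts of the 10 genes, which in turn made up 0.322% to 0.439% of a library.

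Spread between mice was widest for the HSP70 pair. The coefficient of variation over the 8 libraries was 36.7% for *Hspa1a*, 28.9% for *Hspa1b*, 16.2% for *Hsph1* and 12.9% for *Dnajb1*, and from 7.60% to 10.9% for the 6 other genes. *Hspa1a* rested on the fewest reads, 63 to 308 per library as taken from the smallest step of each library. For the library with 63, replicate 1 of the penk-/- chimeras, that step (1.01 normalized counts) is close to 1, so that its read number is less certain.

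**Figure D1:**
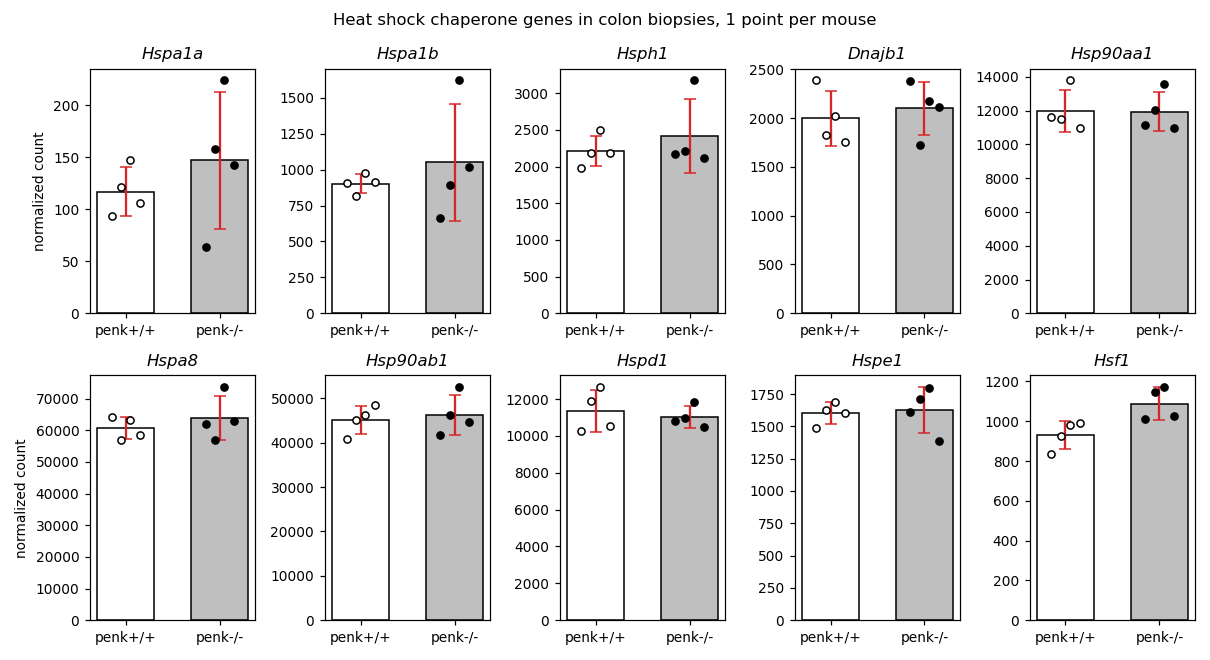
Normalized counts (y axes, from 0) of the 10 genes in penk+/+ (white) and penk-/- (gray) chimeras, with 1 point per mouse, bars at the mean and red error bars of 1 SD (n = 4). The points of the genotypes overlap for every gene but Hsf1.

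The 10 genes were then compared between the genotypes, to see whether their levels in the colon differed with the donor marrow. No gene of the list passed the test. With limma and Benjamini-Hochberg adjustment over the 19127 genes, 0 of the 10 genes had an adjusted *p* below 0.05, as did 0% of all genes tested. The share of 0% belongs to this test. The authors, with DESeq2 and a further limit on the fold change, reported a few genes as different between the groups. At an unadjusted *p* below 0.05, there was 1 of 10 genes, *Hsf1*, against 9.63% of all genes tested. The log2 fold change was above 0, that is, higher in penk-/- chimeras, for 8 of the 10 genes (51.1% of all genes tested), with a median of 0.07 beside 0.01 over all genes. The upper end of the 95% interval stayed below a log2 fold change of 1 for each of the 10 genes.

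The inducible HSP70 genes *Hspa1a* and *Hspa1b* are scarcely transcribed in many unstressed tissues and are the classic read-out of HSF1 activity. *Hspa1b* had 665, 894, 1624 and 1021 normalized counts in replicates 1 to 4 of the penk-/- chimeras and 909, 814, 978 and 915 in those of the penk+/+ chimeras. The penk-/- group held both the lowest and the highest library, and its SD (409) far exceeded that of the penk+/+ group (67.7). For *Hspa1b* the log2 fold change was 0.14 (95% interval -0.36 to 0.65, adjusted *p* = 0.883 with limma). *Hspa1a* had 63.6, 158, 224 and 143 normalized counts in penk-/- against 93.3, 122, 147 and 105 in penk+/+ mice, with the same lowest and highest libraries. Its log2 fold change was 0.22 (95% interval -0.55 to 0.98, adjusted *p* = 0.883 with limma).

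*Hspa1b* (35175412 to 35178214) and *Hspa1a* (35188166 to 35191132) are close neighbours on the minus strand of chromosome 17. The coding sequences of the pair are 99.4% identical, and 48.6% of the 100-base windows of the *Hspa1a* transcript and 49.9% of those of *Hspa1b* recur exactly in another annotated gene. *Hspa1a* took 8.73% to 15.0% of the sum of both. How reads that match either gene were counted is not given in the sources used here, and the split between the genes is uncertain. Summed, the pair differed by 0.15 on the log2 scale (standard error 0.23, adjusted *p* = 0.877 with limma). Windows shared with other genes made up 62.8% for *Hspa8*, 44.1% for *Hsp90aa1* and 26.9% for *Hspd1* (led by the gene models *Gm15459*, *Gm12346* and *Hspd1-ps3*), and 0% for *Hsph1*, *Dnajb1*, *Hsp90ab1* and *Hsf1*.

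*Hsph1*, an HSP110 protein that exchanges the nucleotide of HSP70, had 2176, 2215, 3178 and 2120 normalized counts in penk-/- against 1988, 2190, 2496 and 2185 in penk+/+ mice. Only replicate 3 of the penk-/- chimeras lay above the penk+/+ range. Between genotypes the log2 fold change was 0.11 (95% interval -0.18 to 0.41, adjusted *p* = 0.83 with limma). *Dnajb1*, the HSP40 partner that feeds substrates to HSP70, had 2380, 1724, 2181 and 2119 normalized counts in penk-/- against 2390, 1826, 2027 and 1757 in penk+/+ mice. These groups covered nearly the same range, with a log2 fold change of 0.07 (95% interval -0.20 to 0.34). *Hsp90aa1*, the inducible HSP90 alpha, had 11172, 12072, 13563 and 10988 normalized counts in penk-/- against 11634, 11508, 13808 and 10966 in penk+/+ mice. The genotype means of *Hsp90aa1* were nearly equal, their log2 ratio being 0.00 (standard error 0.09, adjusted *p* = 0.995 with limma).

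The constitutive chaperones varied less. *Hspa8* (HSC70), which folds new proteins and uncoats clathrin vesicles, had 62112, 57105, 73665 and 62803 normalized counts in penk-/- against 64291, 57049, 63136 and 58590 in penk+/+ mice. Its log2 fold change was 0.07 (95% interval -0.15 to 0.28), and replicate 3 of the penk-/- chimeras was again the highest library. *Hsp90ab1*, which stabilizes kinases and steroid receptors, had 41698 to 52520 normalized counts in penk-/- against 40879 to 48431 in penk+/+ mice (log2 fold change 0.03, 95% interval -0.17 to 0.24). *Hspd1* and *Hspe1*, HSP60 and its HSP10 lid, fold proteins imported into mitochondria and share 143 exon bases on opposite strands. *Hspd1* had 10474 to 11835 normalized counts in penk-/- against 10283 to 12648 in penk+/+ mice (log2 fold change -0.04, 95% interval -0.22 to 0.14). *Hspe1* had 1383 to 1795 against 1486 to 1689 normalized counts (log2 fold change 0.02, 95% interval -0.18 to 0.21). Over these 4 genes the adjusted *p* ranged from 0.867 to 0.973 with limma.

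The inducible genes were set against the constitutive ones within each library, as the mean log2 level of the 5 inducible genes minus that of *Hspa8* and *Hsp90ab1*. This difference was -5.41, -5.14, -4.94 and -5.16 in replicates 1 to 4 of the penk-/- chimeras and -5.23, -5.23, -5.09 and -5.33 in those of the penk+/+ chimeras. The mean was -5.16 ± 0.19 in penk-/- against -5.22 ± 0.10 in penk+/+ mice (SD, *n* = 4 each), so that the genotypes differed by 0.06, less than the spread between mice. The sign of this difference was not stable, since it was -0.016 without replicate 3 of the penk-/- chimeras and 0.14 without their replicate 1, 0.10 without replicate 3 and 0.0211 without replicate 4 of the penk+/+ chimeras, -0.0443 with quantile normalization and -0.0527 without both *Pbsn*-rich libraries. No test was made, since the genes had been chosen with results of these libraries known. When *Hspa1a* and *Hspa1b* were left out, the means were -3.80 ± 0.06 and -3.81 ± 0.10.

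**Figure D2:**
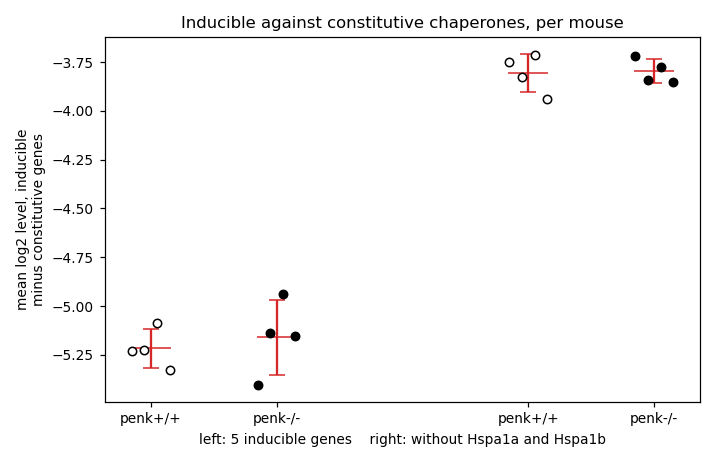
Mean log2 level of the inducible genes minus that of Hspa8 and Hsp90ab1 (y axis, log2 units) per mouse in penk+/+ (white) and penk-/- (black) chimeras, with red bars for the mean and 1 SD (n = 4). With all 5 inducible genes (left) the penk-/- points run from -5.41 to -4.94 around the penk+/+ points, and without Hspa1a and Hspa1b (right) the points of the genotypes overlap.

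*Hsf1*, which encodes the factor itself, had 1011, 1145, 1172 and 1029 normalized counts in replicates 1 to 4 of the penk-/- chimeras and 834, 925, 980 and 989 in those of the penk+/+ chimeras. Every penk-/- library lay above every penk+/+ library, by a small margin between 989 and 1011. The mean was 1089 ± 81.0 in penk-/- against 932 ± 71.4 in penk+/+ mice (SD, *n* = 4 each), 16.8% higher in the former. The log2 fold change was 0.22 (standard error 0.08, 95% interval 0.04 to 0.41, unadjusted *p* = 0.0212, adjusted *p* = 0.45 with limma), rank 901 of the 19127 genes by *p*. The exact permutation test over the 70 assignments of 4 of 8 libraries gave a two-sided *p* of 0.0286, the smallest it can give. Such groups without overlap were found for 1 of the 10 genes and for 5.63% of all genes tested, with penk-/- above penk+/+ chimeras for 2.89% and below them for 2.74%. The unadjusted *p* of *Hsf1* was 0.0584 without replicate 2 and 0.0578 without replicate 3 of the penk-/- chimeras and 0.0603 without replicate 1 of the penk+/+ chimeras, with limma.

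*Hsf1* (chromosome 15, 76361558 to 76388138, plus strand) shares 2486 of its 9999 annotated exon bases with *Dgat1* and 522 with *Bop1*, both on the opposite strand. Libraries were stranded, but the strand setting of the counting is not given in the sources used here. The log2 fold change of *Dgat1* was -0.03 and that of *Bop1* 0.13, neither with an unadjusted *p* below 0.05 with limma.

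**Figure D3:**
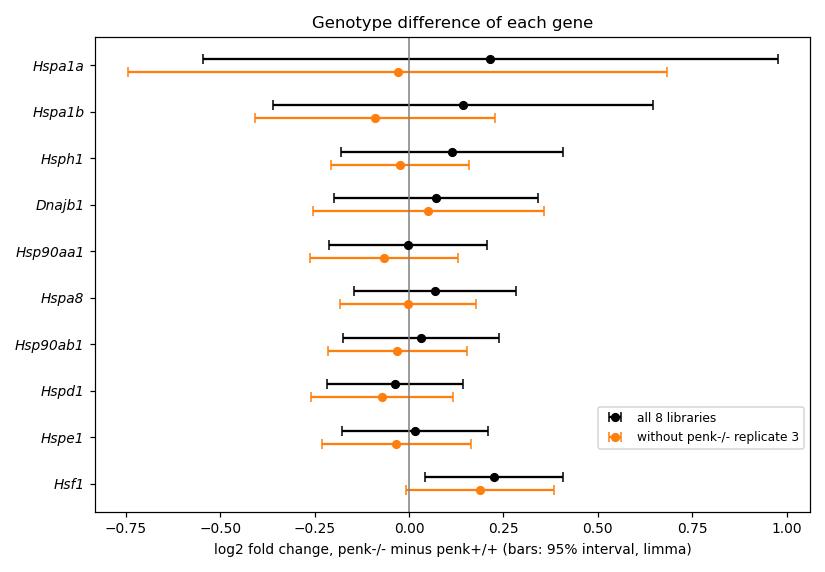
Log2 fold change of each gene, penk-/- minus penk+/+ (x axis), with all 8 libraries (black) and without replicate 3 of the penk-/- chimeras (orange), with bars for the 95% interval of limma. Leaving that library out moves 6 genes from above to below 0. For Hsf1, whose groups do not overlap, the values are 0.22 and 0.19.

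A single mouse carried most of the upward shift. Replicate 3 of the penk-/- chimeras was the highest library for 7 of the 10 genes, while 16.3% of all genes tested had their highest value there. It stood 0.84 above the mean log2 level of *Hspa1a*, 0.78 above that of *Hspa1b* and 0.47 above that of *Hsph1*, against 0.25 for *Hspa8* and 0.20 for *Hsp90ab1*. Replicate 1 of the penk-/- chimeras stood at the other end, 0.95 below the mean for *Hspa1a* (a deviation of -0.95) and at -0.51 for *Hspa1b*. Without replicate 3, 2 of the 10 genes were higher in penk-/- chimeras (*Dnajb1* and *Hsf1*) and 8 were lower, while 50.7% of all genes tested were higher. The log2 fold change was then -0.03 for *Hspa1a*, -0.09 for *Hspa1b* and -0.02 for *Hsph1*. Replicate 3 was singled out for its high values, so that leaving it out was bound to lower these fold changes. Without replicate 1 of the penk-/- chimeras instead, 9 of the 10 genes were higher.

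That library also held the lowest sum of the 8 epithelium markers (440767 normalized counts, against 551541 to 652273 in the other 7) and one of the highest values of *Pbsn*. In replicate 4 of the penk+/+ chimeras, which had as much *Pbsn*, *Hspa1a*, *Hspa1b* and *Hsph1* were below their mean over the 8 libraries (deviations of -0.23, -0.05 and -0.07). The sum of 6 chaperones of the endoplasmic reticulum was highest in both of these libraries, with 74567 and 63729 normalized counts against 44049 to 53667 in the others. *Hspa5* alone made up 40129 and 33241 of these counts. Not every gene of the sum followed it, since *Dnajb11* was highest in replicate 1 of the penk+/+ chimeras (4805). The 6 smooth muscle markers had their lowest sum in replicate 1 of the penk-/- chimeras (142687 normalized counts). *Hspa1a* and *Hspa1b* were also lowest there. In replicate 3 of the penk-/- chimeras the muscle sum was 215849. It was higher in their replicate 2 (244816) and in replicate 3 of the penk+/+ chimeras (234970). The part of tissue composition in the chaperone levels was not tested. With both *Pbsn*-rich libraries left out, 2 of the 10 genes were higher and 8 lower in penk-/- chimeras.

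**Figure D4:**
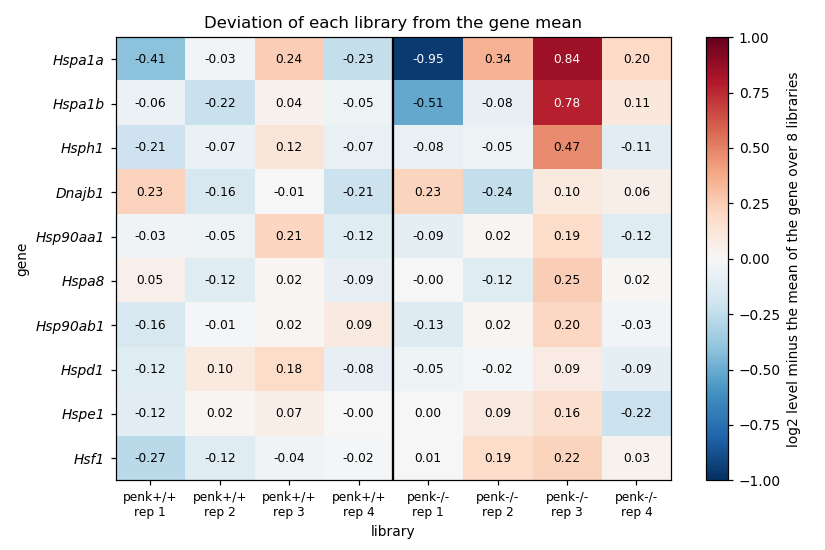
Log2 level of each gene (rows) in each library (columns) relative to its own mean in all 8 libraries, in log2 units, red above and blue below the mean. Replicate 3 of the penk-/- chimeras is above the mean for all 10 genes, most for Hspa1a (0.84) and Hspa1b (0.78).

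The remaining chaperone network was taken from further lists of 66 genes, all of which passed the filter. No gene of them passed an adjusted *p* of 0.05 with limma (smallest 0.341), and at an unadjusted *p* below 0.05, 4 were higher and 2 lower in penk-/- chimeras, beside 4.3% and 5.33% of all genes tested. The groups did not overlap for 2 of the 66 genes with penk-/- above (*Ptges3* and *Clpp*) and for 1 with penk-/- below (*Ier5*). Over all genes tested, these shares were 2.89% and 2.74%. Of 18 other heat-inducible genes, 13 were higher and 5 lower (median log2 fold change 0.07). The 3 with an unadjusted *p* below 0.05 had log2 fold changes of different sign. *Ahsa2*, a relative of the HSP90 activator AHA1, had 572 ± 72.2 normalized counts in penk-/- against 486 ± 31.1 in penk+/+ mice (log2 fold change 0.23, adjusted *p* = 0.509 with limma). *Ier5*, which binds HSF1 and protein phosphatase PP2A, had 1345 ± 137 and 1685 ± 119 normalized counts, without overlap between the genotypes (log2 fold change -0.33, adjusted *p* = 0.341 with limma). *Dedd2* had 1562 ± 321 and 2025 ± 180 (log2 fold change -0.39, adjusted *p* = 0.438 with limma). Without replicate 3 of the penk-/- chimeras, the log2 fold change of *Ahsa2* was 0.15 (unadjusted *p* = 0.126 with limma), and its unadjusted *p* was also above 0.05 without replicate 1 or 2 of these chimeras and without replicate 1, 2 or 3 of the penk+/+ chimeras. That of *Dedd2* was 0.0502 without replicate 1 of the penk+/+ chimeras. Small heat shock protein genes and the HSP70 cofactor *Bag3* had an unadjusted *p* above this limit.

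Among 6 other heat shock factors and their binding proteins, *Hsf2* had the smallest unadjusted *p*. HSF2 forms mixed trimers with HSF1. Its normalized counts were 604, 641, 715 and 667 in penk-/- against 503, 534, 528 and 644 in penk+/+ mice, so that replicate 4 of the penk+/+ chimeras overlapped the penk-/- range. The log2 fold change of *Hsf2* was 0.25 (standard error 0.10, unadjusted *p* = 0.0255, adjusted *p* = 0.453 with limma). Without replicate 3 of the penk-/- chimeras, the unadjusted *p* of *Hsf2* was 0.0689 with limma, and it was also above 0.05 without their replicate 4 and without replicate 1, 2 or 3 of the penk+/+ chimeras. The other 5 genes had an unadjusted *p* of at least 0.05.

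Of 21 constitutive partners of HSP70 and HSP90, 16 were higher and 5 lower, with a median of 0.03. *Bag5*, a nucleotide exchange factor of HSP70, had 847 ± 106 normalized counts in penk-/- against 702 ± 53.3 in penk+/+ mice (log2 fold change 0.26, adjusted *p* = 0.465 with limma). *Ptges3*, the HSP90 cochaperone p23, had 4543 ± 234 and 4155 ± 146 (log2 fold change 0.13, adjusted *p* = 0.515 with limma), without overlap between the genotypes. Groups that did not overlap in either direction were found for 5.63% of all genes tested. Without replicate 3 of the penk-/- chimeras, the unadjusted *p* was 0.082 for *Bag5* and 0.123 for *Ptges3* with limma. It was also above 0.05 for *Bag5* without replicate 1 or 4 of the penk-/- and replicate 1 or 2 of the penk+/+ chimeras, and for *Ptges3* whichever library was left out, except replicate 4 of the penk+/+ chimeras. The 7 mitochondrial chaperones and proteases (log2 fold changes from -0.14 to 0.10), the 8 subunits of the cytosolic chaperonin TRiC (-0.04 to 0.06) and the 6 chaperones of the endoplasmic reticulum (-0.10 to -0.03) had no gene with an unadjusted *p* below 0.05 with limma.

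**Figure D5:**
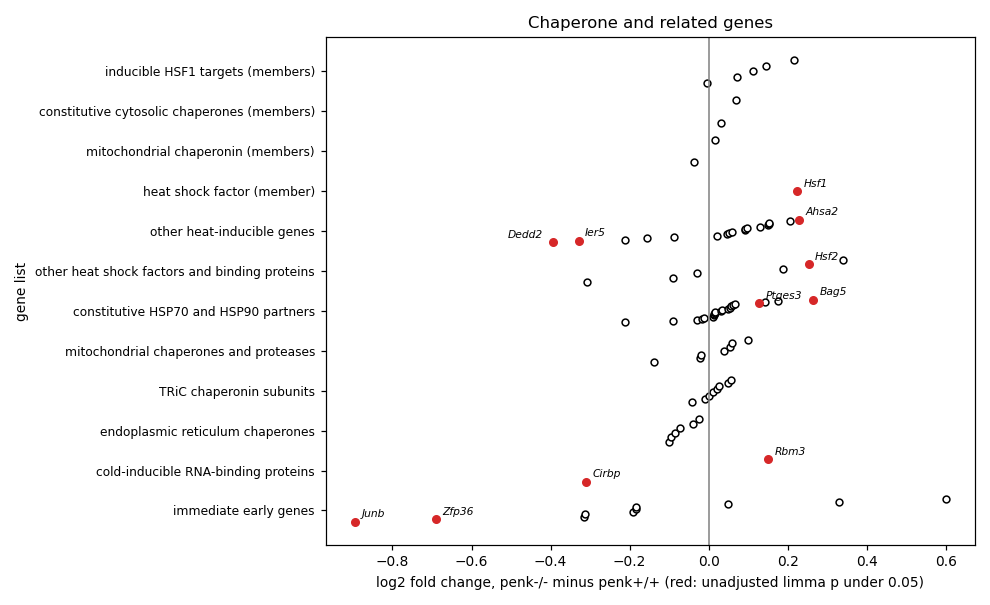
Log2 fold change, penk-/- minus penk+/+ (x axis), of every gene of the chaperone lists and of cold-inducible and immediate early genes (rows, 1 point per gene), with red for an unadjusted limma p below 0.05. Hsf1 (0.22) and Hsf2 (0.25) lie to the right, and the TRiC subunits lie between -0.04 and 0.06.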

How the data were processed

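Libraries were stranded, paired-end and poly-A selected. The authors checked reads by FastQC, used STAR 2.7.8a and GRCm39 for alignment and counting, and scaled with DESeq2 1.30.0. The deposited values are a signal, the normalized count of a gene in a mouse. Each library had a smallest step of which 100% of its values were whole multiples (tolerance 0.01), from which its depth (33.1 to 50.7 M reads) was taken. The step of 1 library (1.01) is close to 1, and its depth is less certain.

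Identifiers were matched to GENCODE M39 (25776 of 26008). Genotype effects were estimated by limma 3.58.1 under R 4.3.3 (eBayes with trend, two-sided) on log2(value + 1), for genes with a mean of at least 10, without covariates and with Benjamini-Hochberg adjustment. The fold changes are on this scale, which understates those of low genes. Exact permutation tests, sequence searches and figures used Python 3.11.15, scipy 1.17.1 and matplotlib 3.10.9. The test was tried on simulated counts with log2 changes of 1 and 2, of which it recovered 83% and 97%. Changes as small as those of the 10 genes were not simulated.

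The 10 genes and all lists were chosen with earlier results of these data known. Genes named are the 10 members, *Penk*, *Pbsn*, *Nr1d1* and *Dbp*, list genes with an unadjusted *p* below 0.05, otherwise those with the largest changes, and the 10 genes most like the inducible ones, of which 1 is not reported here. *Dgat1* and *Bop1* were added for their overlap with *Hsf1*. No mouse was left out.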

Additional observations from a re-analysis of the deposited data

Results flagged for a closer look

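*Hsph1* in replicate 3 of the penk-/- chimeras (3178 normalized counts) stood far above the other penk-/- libraries (2120 to 2215), with a gap of 0.91 of the range of the group, above the 95% limit of Dixon's test for 4 samples. It was the single case among 22 groups of 4 libraries examined, in which chance gives 1.1.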

How the results depend on the processing

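The comparison was repeated with other pseudocounts, with the low-value filter removed or raised, without the trend in limma, after quantile normalization, with replicate numbers as a block, with each library left out in turn and without both *Pbsn*-rich libraries. The count tests planned on recovered reads were not run. The number of the 10 genes with an adjusted *p* below 0.05 was 0 under all 16 alternatives. Genes called among all tested numbered 0, but 1 with quantile normalization, 1 with the block and 0 to 6 when a library was left out (6 without replicate 1 of the penk-/- chimeras). Members at an unadjusted *p* below 0.05 numbered 0 to 2 when a library was left out (2, *Hsf1* and *Hspa1a*, without replicate 1 of the penk-/- chimeras). The log2 fold change of *Hsf1* ranged from 0.17 to 0.26 over the alternatives. As its groups do not overlap, leaving libraries out could not turn its sign.

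The cause of the changes of sign was not tested, and all concern values that did not pass the test. With quantile normalization, the log2 fold change was 0.0775 for *Hsp90aa1* and 0.0424 for *Hspd1*. Without both *Pbsn*-rich libraries, it was -0.0728 for *Hspa1a*, -0.0839 for *Hspa1b*, -0.0293 for *Hsph1*, -0.00801 for *Dnajb1*, -0.0187 for *Hspa8* and -0.0324 for *Hspe1*. With a library left out, it ranged from -0.0305 to 0.57 for *Hspa1a*, -0.0907 to 0.34 for *Hspa1b*, -0.0244 to 0.17 for *Hsph1*, -0.0657 to 0.0671 for *Hsp90aa1*, -0.0306 to 0.0803 for *Hsp90ab1*, -0.00172 to 0.12 for *Hspa8*, -0.0342 to 0.0911 for *Hspe1* and -0.0828 to 0.0168 for *Hspd1*.

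Same-numbered libraries correlated from -0.32 to 0.15 in their deviations from the group means, and 1 of 8 libraries correlated best with its own number, so that the replicate numbers gave no pairing. With the replicate block, the adjusted *p* of *Hsf1* was 0.216, and 0 of the 10 genes passed.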

Other observations

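The cold-inducible RNA-binding protein genes, which respond to small drops in temperature, had log2 fold changes of opposite sign. *Cirbp* had 2169, 2411, 2185 and 2212 normalized counts in replicates 1 to 4 of the penk-/- chimeras and 2602, 2892, 2701 and 2941 in those of the penk+/+ chimeras, without overlap between the genotypes (log2 fold change -0.31, standard error 0.06, adjusted *p* = 0.323 with limma). *Rbm3* had 5679, 5642, 6076 and 6402 in penk-/- against 5162, 5426, 5427 and 5397 in penk+/+ mice, also without overlap (log2 fold change 0.15, adjusted *p* = 0.459 with limma). The unadjusted *p* of *Rbm3* was 0.0553 without replicate 3 and 0.0897 without replicate 4 of the penk-/- chimeras, with limma. Without replicate 1 of the penk+/+ chimeras, it was 0.07. Groups that did not overlap in either direction made up 5.63% of all genes tested. The circadian genes *Nr1d1* and *Dbp* had log2 fold changes of -1.64 and -1.37 in the same libraries. As for all genes tested, neither had an adjusted *p* below 0.05 with limma. Any link between them and *Cirbp* or *Rbm3* was not tested.

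Of 10 immediate early genes, which are induced within minutes by growth factors, stress and handling of tissue, 3 were higher and 7 lower in penk-/- chimeras. *Junb* had 3042 ± 1042 normalized counts in penk-/- against 5505 ± 1189 in penk+/+ mice (log2 fold change -0.89, adjusted *p* = 0.341 with limma). For *Zfp36* the values were 3496 ± 1358 and 5424 ± 1199 (log2 fold change -0.69, adjusted *p* = 0.453 with limma). The unadjusted *p* of *Zfp36* was 0.0565 without replicate 3 and 0.0601 without replicate 4 of the penk-/- chimeras, with limma. Without replicate 3 of the penk+/+ chimeras, it was 0.072. *Junb* and *Zfp36* had their lowest library in replicate 3 of the penk-/- chimeras (1949 and 2082 normalized counts), where *Hspa1a*, *Hspa1b* and *Hsph1* stood highest. *Fos*, *Jun* and *Ier2* were also lowest there. *Fosb*, *Egr1* and *Dusp1* were instead lowest in replicate 1 of the penk-/- chimeras, where *Hspa1a* and *Hspa1b* were lowest. *Ier3* was lowest in replicate 4 of the penk-/- and *Atf3* in replicate 2 of the penk+/+ chimeras. A relation between these genes and the chaperones was not tested.

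The genes outside the list whose log2 levels most resembled the mean of the 5 inducible genes over the 8 libraries included *Adpgk*, *Stbd1*, *Med31*, *Gnai1*, *Nfasc*, *Cend1*, *Gpx8*, *Eda2r* and *Stmn2*. Pearson's r was 0.94 to 0.98 (*n* = 8 libraries, given as a description). Without the 2 libraries farthest from the median, replicates 1 and 3 of the penk-/- chimeras, it was 0.48 for *Nfasc*, the lowest, and 0.95 for *Gpx8*, the highest. Each gene named was highest in replicate 3 of the penk-/- chimeras. None of them belongs to the 66 further chaperone and factor genes, of which *Fkbp4*, an HSP90 cochaperone, came nearest, at rank 50 of 19117 genes.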
